A study of Danio rerio with 24 samples.

Results

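The earliest comparison of this zebrafish study set jaws of TCDD-exposed larvae against jaws of vehicle larvae 1 h after the exposure began. Its members were chosen by their sample titles and are 6 of the 24 arrays of the series, 3 with TCDD and 3 with vehicle. The TCDD arrays held RNA from AB larvae kept in water with TCDD at 1 ng/ml for 1 h from 96 h post fertilization (hpf) and collected at 97 hpf. Larvae of the vehicle group had 0.1% DMSO over the same hour and were collected at the same age. No mutation or transgene is named for either group. Each array was hybridized with RNA from 10 pooled jaws, dissected as head tissue without eyes and brain, so an array averages over larvae and over cartilage, muscle, skin and other tissues of the head. The remaining 18 arrays of the series were taken 2, 4 and 12 h after the exposure began. Their larvae also had TCDD or vehicle for 1 h from 96 hpf. They were thus older at collection, and their exposure had already ended. These 18 arrays served here for the estimate of the spread and for following the 1 h differences in time.

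TCDD (2,3,7,8-tetrachlorodibenzo-p-dioxin) binds the aryl hydrocarbon receptor (AHR), a transcription factor that waits in the cytosol with heat shock protein partners, enters the nucleus with a ligand, pairs with ARNT and switches on target genes. The best known targets encode cytochromes P450 of family 1, which oxidize foreign compounds, and feedback regulators such as TIPARP and the AHR repressor. In zebrafish larvae TCDD is known for stunting the lower jaw, and the title of the series ties this to lower sox9b, a transcription factor gene needed for cartilage. The comparison at 1 h asks which transcripts differ first.

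Values below are log2 of the deposited intensities, and each difference is TCDD minus vehicle on that scale. Differences were tested with limma over 15502 probe sets, and "passed" means a Benjamini-Hochberg adjusted p under 0.05. A probe set measures one stretch of a transcript, so levels are compared between arrays and never between probe sets.

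One array stood apart. TCDD replicate 2 had weak signal at the 5′ ends of control transcripts. For the Bacillus dap control, the 5′ minus 3′ signal was 0.16, -2.92 and -0.07 in TCDD replicates 1, 2 and 3, against -0.77, -0.51 and -0.40 in the vehicle replicates. For GAPDH, a zebrafish transcript, it was -1.06, -3.60 and -1.60 with TCDD, against -1.81, -1.85 and -1.45 with vehicle. TCDD replicate 2 was the lowest of the 6 arrays for both, and also for the thr, phe and lys controls. It was not the lowest for acta1, where it was at -7.40, between -6.99 and -6.97 on the other TCDD arrays and -7.75 to -7.65 on the vehicle arrays. For acta1 the groups did not overlap in the deposited values, with TCDD higher (exact two-sided permutation p = 0.1, adjusted p = 0.6), and 0.1 is the smallest p that 3 arrays against 3 can give. After joint quantile normalization the acta1 groups overlapped. TCDD replicate 2 was then at -7.73, against -7.76 to -7.49 on the vehicle arrays (exact two-sided permutation p = 0.3). For the other 5 controls the groups overlapped. The 18 calls, tiparp and the medians of the gene lists were also computed without TCDD replicate 2.

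**Figure D1:**
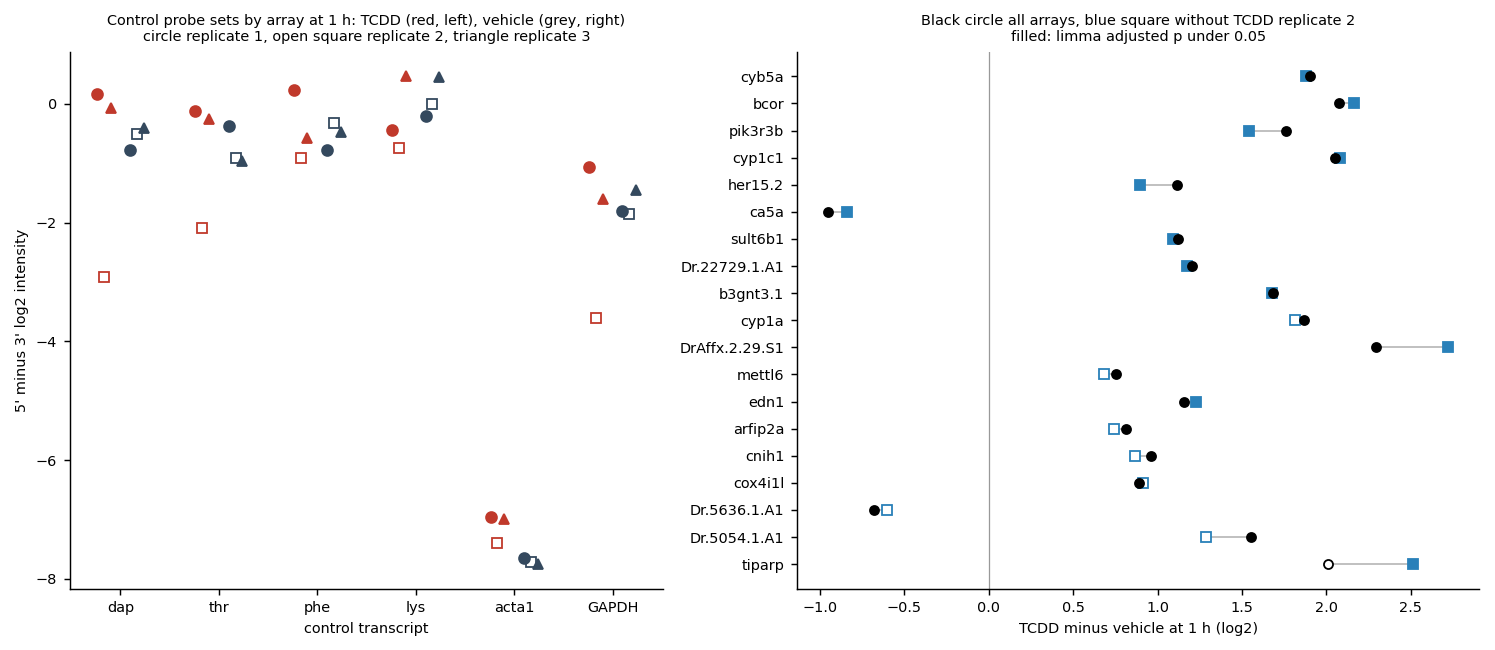
The left panel plots the 5′ minus 3′ log2 intensity of 6 control transcripts on each 1 h array, and the right panel plots the TCDD minus vehicle difference (log2) of the 18 probe sets that passed, and of tiparp, with all arrays and without TCDD replicate 2. TCDD replicate 2 lies at -2.92 for dap and -3.60 for GAPDH. No difference changes sign without it, which is fixed in advance where the groups do not overlap, as in all of these probe sets.

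The 2 treatments were not separated as whole profiles. The median absolute log2 difference between 2 arrays was 0.143 to 0.256 within the TCDD group, 0.0899 to 0.185 within the vehicle group and 0.0871 to 0.257 between the groups. TCDD replicate 3 lay nearer to vehicle replicate 3 (0.0871) than to TCDD replicates 1 (0.143) and 2 (0.211). In the test, whose spread comes from all 24 arrays, 16 probe sets passed as higher with TCDD at 1 h (0.103% of all tested). Another 2 passed as lower (0.0129%), together 0.116%. With the spread of the 6 arrays of 1 h alone, 0 passed. An unadjusted p under 0.05 was found for 1703, of which 1084 (6.99%) were higher and 619 (3.99%) lower. The median difference over all probe sets was -0.0092, and 46.8% lay above 0. Among the rises the smallest was 0.75, the median 1.38 and the largest 2.30, and 12 of the 16 were at least 2-fold.

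The annotation gives 1 gene for 13 of the 18 probe sets and none for 4. The last one carries the symbol her15.2 under 2 gene IDs, so it cannot be given to a single gene. All 18 had TCDD and vehicle groups without overlap, as did 7.6% of all probe sets in the higher direction and 4.99% in the lower one. Since the 18 were selected for large differences on these arrays, their separation adds nothing to the test.

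**Figure D2:**
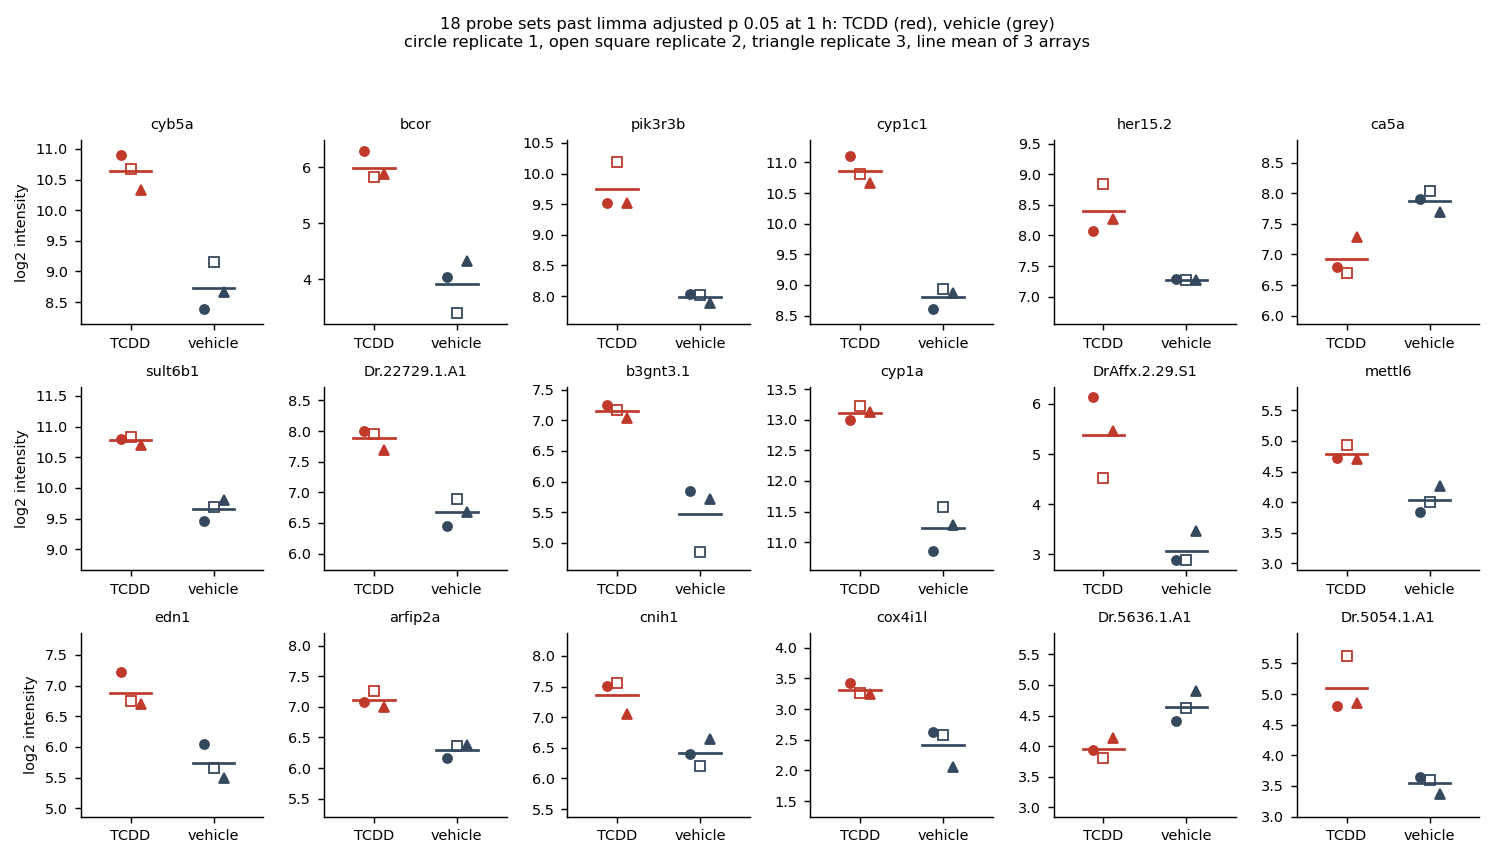
Each panel plots the log2 intensity of 1 probe set on the 3 TCDD and 3 vehicle arrays of 1 h, with the mean of each group as a line. In all 18 panels the TCDD points lie wholly above (16) or wholly below (2) the vehicle points.

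Among the named rises were 2 cytochromes P450, cytochrome b5 and a sulfotransferase. For cyp1a, the P450 most used as a sign of AHR activity, the level was 12.99, 13.22 and 13.12 with TCDD, against 10.86, 11.57 and 11.29 with vehicle (replicates 1 to 3). The groups lay more than 1 log2 unit apart, and the difference was 1.87 (SE 0.30, 3.65-fold, limma adjusted p = 0.0115). In bulk tissue of this kind, more RNA per cell and more cells that make it cannot be told apart. Cyp1c1 encodes another P450 of family 1, found in fish, and its level was 11.11, 10.81 and 10.66 with TCDD, against 8.61, 8.93 and 8.87 with vehicle. Its difference of 2.05 (SE 0.29, limma adjusted p = 0.00427) was among the 3 largest of the 18. A second probe set for cyp1c1 read 9.37, 4.57 and 5.62 with TCDD, against 2.43, 2.52 and 3.43 with vehicle. It was higher on all TCDD arrays but so uneven among them that it did not pass (difference 3.73, SE 1.34, limma adjusted p = 0.268). The third lay between 2.27 and 2.39 on all 6 arrays, under the brightest of 3 reporter probe sets for fluorescent proteins (2.72), which wild-type fish lack.

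Cyb5a encodes cytochrome b5, which passes electrons to cytochromes P450, and it had the smallest p of all 15502 probe sets. Its level was 10.90, 10.68 and 10.33 with TCDD, against 8.38, 9.16 and 8.67 with vehicle, a difference of 1.90 (SE 0.22, limma adjusted p = 0.00100). Sult6b1 encodes a cytosolic sulfotransferase, an enzyme class that conjugates small molecules. It read 10.79, 10.84 and 10.70 with TCDD, against 9.47, 9.68 and 9.81 with vehicle, and rose by 1.12 (SE 0.17, limma adjusted p = 0.00681). The TCDD arrays were closer to each other for sult6b1 than the vehicle arrays were.

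Cyb5a and cyp1c1 passed in each of the 6 fits that left out 1 array of 1 h. Sult6b1 did not pass without vehicle replicate 1 (limma adjusted p = 0.0542). Cyp1a did not pass without vehicle replicate 1 (limma adjusted p = 0.0816) or without TCDD replicate 2 (0.0525), although its difference without that array was still 1.82.

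Other rises were of edn1, bcor, pik3r3b and a her15.2 probe set. Edn1 encodes endothelin 1, a secreted peptide that patterns the lower jaw in the pharyngeal arches. It was at 7.22, 6.74 and 6.69 with TCDD, against 6.04, 5.65 and 5.49 with vehicle, a rise of 1.16 (SE 0.20, limma adjusted p = 0.0201). This call was less secure than most: it was lost without TCDD replicate 1 (limma adjusted p = 0.12), vehicle replicate 2 (0.0948) or vehicle replicate 3 (0.0687). Joint quantile normalization of all arrays lost it as well (limma adjusted p = 0.0513). Bcor encodes a corepressor that works with BCL6, and in people its mutation causes a syndrome of eye, face, heart and teeth. Its level was 6.29, 5.82 and 5.88 with TCDD, against 4.04, 3.39 and 4.32 with vehicle, a rise of 2.08 (SE 0.27, limma adjusted p = 0.00223). Bcor passed in all 6 fits with 1 array of 1 h left out.

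Pik3r3b, a regulatory subunit of phosphoinositide 3-kinase, was at 9.51, 10.19 and 9.53 with TCDD, against 8.04, 8.01 and 7.89 with vehicle. The rise was 1.76 (SE 0.23, limma adjusted p = 0.00223), and a second probe set for the gene lay under the brightest reporter on every 1 h array (2.22 to 2.33). The probe set with the symbol her15.2, a repressor of the Hes family downstream of Notch, read 8.08, 8.83 and 8.26 with TCDD. Vehicle arrays were at 7.28, 7.27 and 7.28, the tightest vehicle group of the 18, and the rise was 1.11 (SE 0.16, limma adjusted p = 0.00513). Another probe set of her15.2 was higher on each TCDD array too, at 4.70, 5.53 and 4.87, against 4.22, 4.12 and 4.33 with vehicle, without passing (difference 0.81, SE 0.20, limma adjusted p = 0.118). For both, TCDD replicate 2 was the highest array. Pik3r3b and the called her15.2 probe set passed in all 6 fits that left out 1 array of 1 h.

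The other named rises were of b3gnt3.1, cnih1, arfip2a, mettl6 and cox4i1l. B3gnt3.1 belongs to a family of glycosyltransferases that extend sugar chains, and read 7.25, 7.17 and 7.04 with TCDD, against 5.84, 4.85 and 5.72 with vehicle (difference 1.68, SE 0.27, limma adjusted p = 0.0113). Cnih1 is a cargo receptor for export from the endoplasmic reticulum, with 7.50, 7.55 and 7.05 under TCDD, against 6.39, 6.20 and 6.64 under vehicle (difference 0.96, SE 0.17, limma adjusted p = 0.0304). Arfip2a encodes an arfaptin, a binding partner of small GTPases, with 7.08, 7.25 and 7.003 under TCDD, against 6.16, 6.36 and 6.37 under vehicle (difference 0.81, SE 0.15, limma adjusted p = 0.0304). Rises of cnih1 and arfip2a were under 2-fold.

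Mettl6 encodes a methyltransferase of transfer RNA and was the smallest rise, with 4.73, 4.93 and 4.71 under TCDD and 3.84, 4.00 and 4.27 under vehicle (difference 0.75, SE 0.13, limma adjusted p = 0.0154). Cox4i1l, named for a subunit of the respiratory chain's cytochrome c oxidase, read 3.43, 3.26 and 3.24 with TCDD, against 2.63, 2.58 and 2.06 with vehicle (difference 0.89, SE 0.16, limma adjusted p = 0.0340). Its vehicle values lay under the brightest reporter, so its fold is uncertain.

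These 5 depended on single arrays. B3gnt3.1 was lost without TCDD replicate 1 (limma adjusted p = 0.0521) or vehicle replicate 2 (0.0726). Mettl6 was lost without TCDD replicate 2 (0.0831), vehicle replicate 1 (0.103) or vehicle replicate 2 (0.0726). For cnih1 and arfip2a the fit failed to pass without any of TCDD replicates 1 and 2 and vehicle replicates 1 and 2, with limma adjusted p between 0.103 and 0.155 for cnih1 and between 0.0726 and 0.156 for arfip2a. Cox4i1l passed only without TCDD replicate 3 (limma adjusted p = 0.0242), and its other 5 values lay between 0.0542 and 0.136.

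Both falls were under 2-fold. Ca5a encodes a mitochondrial carbonic anhydrase, which interconverts carbon dioxide and bicarbonate. It was at 6.79, 6.69 and 7.29 with TCDD, against 7.91, 8.03 and 7.69 with vehicle, and fell by 0.95 (SE 0.14, limma adjusted p = 0.00567). Ca5a passed in all 6 fits with 1 array of 1 h left out. The other fall, probe set Dr.5636.1.A1_at, has no gene in the annotation and fell by 0.68 (SE 0.13, limma adjusted p = 0.0370). It was lost in 4 of those fits, without TCDD replicates 1 and 2 and vehicle replicates 2 and 3 (limma adjusted p between 0.0782 and 0.16).

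Of the 3 rises without a gene, probe set DrAffx.2.29.S1_at had the largest difference of the 18 on this scale. It read 6.15, 4.52 and 5.45 with TCDD, against 2.89, 2.88 and 3.46 with vehicle (difference 2.30, SE 0.38, limma adjusted p = 0.0126). Its vehicle values lie close to the brightest reporter, and with an offset of 16 added to the intensities its difference was 1.26 and it did not pass (limma adjusted p = 0.0644), below cyp1c1 (2.01), cyp1a (1.86), cyb5a (1.86), pik3r3b (1.70), b3gnt3.1 (1.38) and bcor (1.35). TCDD replicate 2 was its lowest TCDD array, and without that array the difference was 2.72. The other 2, Dr.22729.1.A1_at and Dr.5054.1.A1_at, rose by 1.21 (limma adjusted p = 0.00903) and 1.55 (limma adjusted p = 0.0371). The fits without 1 array kept Dr.22729.1.A1_at in 5 of 6 (0.0731 without vehicle replicate 1) and DrAffx.2.29.S1_at in 3 of 6 (0.0679 without TCDD replicate 1, 0.0816 and 0.0726 without vehicle replicates 1 and 2). Of these fits, Dr.5054.1.A1_at passed only in the one without TCDD replicate 3 (0.0198), and the other 5 values lay between 0.0536 and 0.172.

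The next 10 probe sets by p had adjusted p between 0.0618 and 0.074, with 7 higher and 3 lower. First among them was tiparp, an AHR target that encodes a member of the poly(ADP-ribose) polymerase family and restrains the receptor. Its level was 8.16, 6.70 and 8.25 with TCDD, against 5.95, 5.30 and 5.82 with vehicle, so that replicate 2 was the lowest within each group. The difference was 2.01 (SE 0.40, limma adjusted p = 0.0618) with all arrays and 2.51 (limma adjusted p = 0.0100) without TCDD replicate 2. F13a1b, a chain of coagulation factor XIII, was at 7.10, 6.93 and 7.68 with TCDD, against 8.98, 8.54 and 8.13 with vehicle (difference -1.32, SE 0.26, limma adjusted p = 0.0618). Cxxc5a, a zinc finger regulator, differed by 0.97, nuak2, a kinase related to AMPK, by 1.40 and smn1, which assembles spliceosomal particles, by 0.64. None of these 5 passed with all arrays.

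The later arrays show which of the early rises lasted. They are other jaws, with their own vehicle groups, though all times share the estimate of the spread. The jaws came from older larvae, collected after their exposure of 1 h had ended, so the courses do not follow continued exposure. Of the 16 rises, 12 had a difference above 0 at 2 h, 14 at 4 h and 16 at 12 h, beside 56.8%, 47.6% and 35.8% of all probe sets. Passing as higher were 7 at 2 h, 9 at 4 h and 6 at 12 h, beside 0.0839%, 0.323% and 0.387% of all. Cyb5a, cyp1c1, sult6b1 and edn1 passed at every time. Cyb5a differed by 1.90, 1.81, 2.69 and 4.89 at 1, 2, 4 and 12 h, and cyp1c1 by 2.05, 2.02, 2.81 and 5.13. For both, the values at 1 and 2 h were alike and those at 12 h were the largest. Edn1 had another course, with 1.16, 1.43, 1.499 and 0.89, so that its smallest difference was the one at 12 h.

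Cyp1a differed by 1.55 at 2 h without passing (SE 0.30, limma adjusted p = 0.0701) and by 3.78 and 9.02 at 4 and 12 h. Pik3r3b passed at 2 and 4 h and bcor at 2 h alone (difference 1.43, limma adjusted p = 0.0471). At 4 and 12 h bcor was at 0.41 and 0.26 (SE 0.27 for each) and did not pass. The probe sets without a gene were called again at 2 and 4 h (DrAffx.2.29.S1_at), at 4 and 12 h (Dr.22729.1.A1_at) and at 4 h (Dr.5054.1.A1_at). Her15.2, b3gnt3.1, mettl6, arfip2a, cnih1 and cox4i1l passed at no later time, with differences from -0.32 to 0.76. Neither fall passed again, at 2, 4 or 12 h, where 0.00645%, 0.142% and 0.368% of all probe sets passed as lower: ca5a was at -0.14, 0.30 and -0.0042, and Dr.5636.1.A1_at at -0.16, -0.03 and -0.23.

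**Figure D3:**
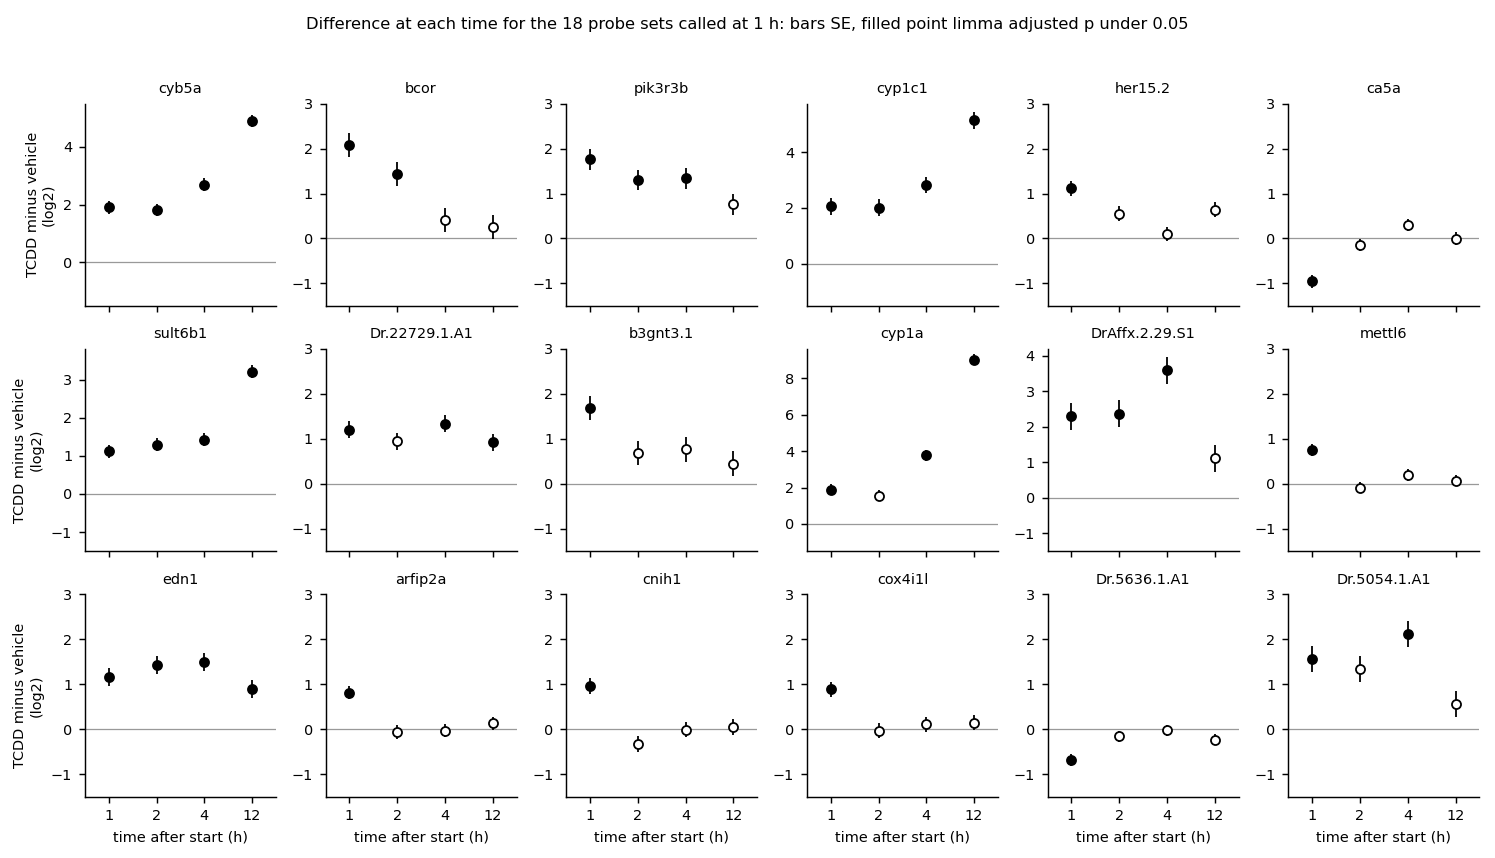
Each panel plots the TCDD minus vehicle difference (log2, bars SE) of 1 of the 18 probe sets at 1, 2, 4 and 12 h, with filled points for limma adjusted p under 0.05. Cyb5a, cyp1c1, sult6b1 and edn1 are filled at all times, while 6 rises and both falls are filled at 1 h alone.

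Passing at 1 h and not later does not show that the differences themselves differ, so this was tested as the 1 h difference minus the mean of those at 2, 4 and 12 h. It passed for 5 probe sets, 0.0323% of all, and their genes were picked for naming by this result. Of the 18, cyp1a (-2.91, SE 0.35, limma adjusted p = 0.00086) and ca5a (-1.004, SE 0.16, limma adjusted p = 0.0224) were among them. The 6 rises not called later had limma adjusted p between 0.0885 and 0.216 in this test, so none was shown to be confined to 1 h. Bcor did not pass it either (contrast 1.38, SE 0.31, limma adjusted p = 0.107). Cxcr4b, a chemokine receptor that guides migrating cells, was at 4.56, 4.69 and 4.62 with TCDD, against 4.70, 4.53 and 4.55 with vehicle at 1 h (difference 0.03, SE 0.16). The groups interleaved at that time, and the gene was higher by 1.35, 2.05 and 1.67 at 2, 4 and 12 h (contrast -1.66, SE 0.19, limma adjusted p = 0.000808). Wdr76, a WD-repeat protein gene, differed by 0.59 at 1 h without passing and by -0.29, -0.76 and -0.37 later (contrast 1.06, SE 0.17, limma adjusted p = 0.0178).

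Sox9b, the fifth, had not clearly changed at 1 h. Its brighter probe set read 6.58, 7.28 and 6.59 with TCDD, against 7.11, 7.29 and 7.12 with vehicle (difference -0.36, SE 0.20, limma adjusted p = 0.564). Replicates 1 and 3 were lower than every vehicle array, while TCDD replicate 2 was at the vehicle level. Without that array the difference was -0.59 (limma adjusted p = 0.36). At 2, 4 and 12 h it was -0.55, -2.35 and -3.77, and the 1 h value exceeded the mean of these by 1.87 (SE 0.23, limma adjusted p = 0.00086). The second sox9b probe set lay between 2.06 and 2.23 on all 6 arrays, under the brightest reporter, and gives no information.

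Ca5a and wdr76 lost this contrast without TCDD replicate 2 (limma adjusted p = 0.103 and 0.0916), vehicle replicate 1 (0.1 for both) or vehicle replicate 2 (0.0927 and 0.0581), and ca5a also without TCDD replicate 1 (0.0731). Cyp1a, cxcr4b and sox9b passed without any 1 of the 6 arrays of 1 h. With the replicate number as a block within each time, sox9b did not pass (limma adjusted p = 0.0528), nor did ca5a and wdr76 (0.192 for both). Ca5a was also lost with trend and robust settings (0.0641) and wdr76 with joint quantile normalization (0.0534).

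**Figure D4:**
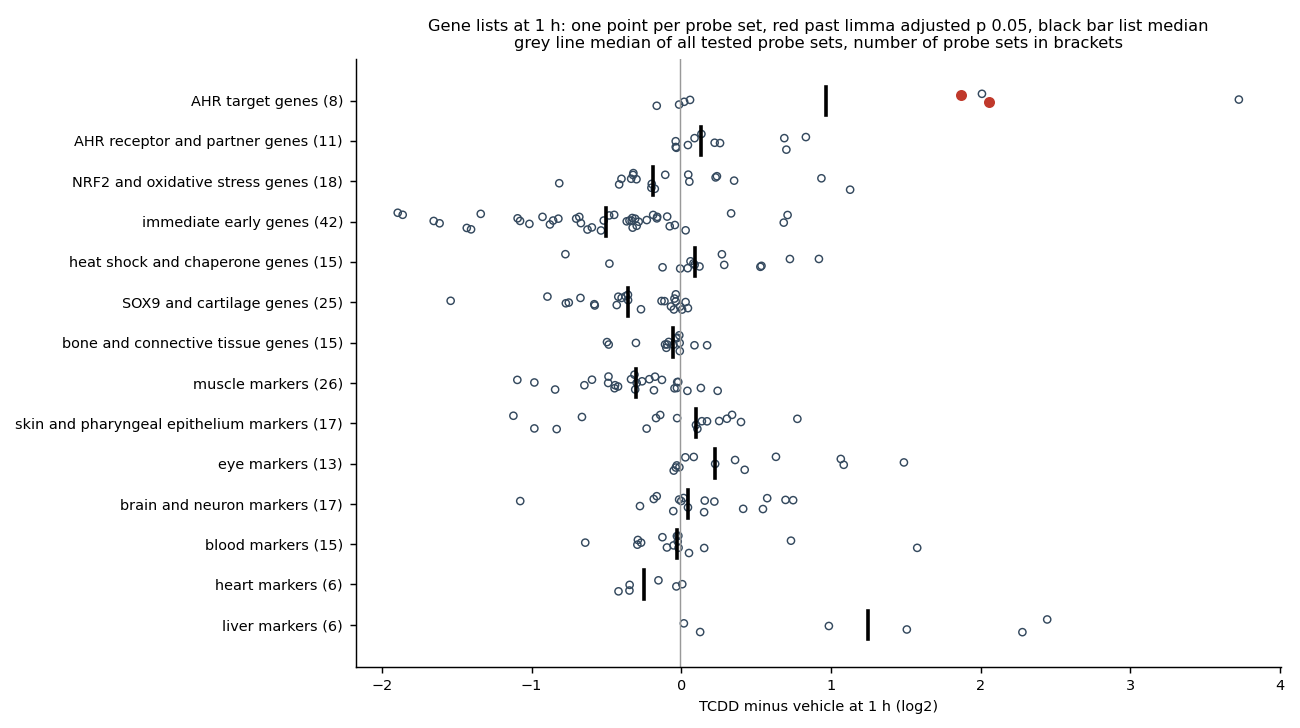
Each point is the TCDD minus vehicle difference (log2) of 1 probe set at 1 h, by gene list, with the list median as a black bar and the median of all probe sets as a grey line. Only cyp1a and a probe set of cyp1c1, in red, passed, and the median of the 42 probe sets of immediate early genes lies at -0.50.

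Gene lists place these genes in their pathways. The lists were chosen with earlier results of these data known, so a list's share beside that of all probe sets is no independent test. Of 15 listed AHR targets, 6 were matched to 8 probe sets: cyp1a, cyp1c1, cyp1d1, tiparp, nqo1 and gstp1. Cyp1a and 1 of 3 probe sets of cyp1c1 passed, both as rises, so 2 of 8 probe sets passed against 0.116% of all. The list median was 0.96 (0.98 without TCDD replicate 2), against -0.0092 over all probe sets, but it fell in a gap between members. In 4 of the 8, probe sets of cyp1a, cyp1c1 and tiparp, TCDD arrays lay wholly above vehicle arrays, beside 7.6% of all. These differed by 1.87 to 3.73, and the rest, cyp1d1 among them, by -0.16 to 0.06. Nqo1, a quinone reductase, was at 10.81, 10.56 and 10.45 with TCDD, against 11.07, 10.76 and 10.49 with vehicle, and the difference of -0.16 did not pass. For gstp1, a glutathione transferase found here as gstp1.2, the difference was 0.06 (SE 0.15).

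Genes of the receptor itself and its partners (8 of 11 genes, 11 probe sets) had no call and a median of 0.13 (0.24 without TCDD replicate 2, 0.23 without TCDD replicate 3). Relative to the vehicle mean, the median member of this list was at 0.42, 0.06 and -0.001 on TCDD replicates 1, 2 and 3. Ahr2, the main AHR of TCDD toxicity in zebrafish, was at 8.38, 7.50 and 7.66 with TCDD, against 7.44, 7.63 and 8.07 with vehicle. The groups overlapped, with a difference of 0.13 (SE 0.25). A probe set of the chaperone hsp90aa1.2 differed by 0.83 (SE 0.29, limma adjusted p = 0.25), higher on all 3 TCDD arrays. Likewise no probe set passed among genes of oxidative stress (14 of 18 genes, 18 probe sets, median -0.19) or of heat shock (13 of 17 genes, 15 probe sets, median 0.09). Without TCDD replicate 2 these medians were -0.07 and 0.21. They were -0.25 and 0.20 without TCDD replicate 3, and -0.27 and 0.15 without vehicle replicate 1. Relative to the vehicle mean, the median heat shock member was at 0.46, -0.05 and 0.08 on TCDD replicates 1, 2 and 3. List medians without TCDD replicate 1 were not computed. Txnrd3, a thioredoxin reductase, had the smallest p of the oxidative stress list (difference 0.35, SE 0.13, limma adjusted p = 0.298) and hspa4a, a chaperone, that of the heat shock list (difference 0.73, SE 0.26, limma adjusted p = 0.27).

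Genes of cartilage lay below vehicle as a list but none passed. Of 29 genes 17 were matched to 25 probe sets, of which 22 had a difference under 0, against 53.2% of all probe sets. The median was -0.36, and 7 of the 25 had TCDD arrays wholly under the vehicle arrays, beside 4.99% of all. Hapln1a, which links hyaluronan to proteoglycan, was at 9.80, 7.19 and 9.66 with TCDD, against 10.64, 10.08 and 10.55 with vehicle. Its difference of -1.54 (SE 0.52, limma adjusted p = 0.239) had TCDD replicate 2 as by far the lowest array and was -0.69 without it. The other 5 hapln1a probe sets, none of which passed, differed by -0.58 to -0.07. Matn1, a matrilin of cartilage matrix, read 12.93, 12.02 and 12.32 with TCDD, against 13.22, 13.25 and 13.06 with vehicle (difference -0.75, SE 0.27, limma adjusted p = 0.265). Collagen genes col9a3 and col2a1a differed by -0.67 and -0.40 (limma adjusted p = 0.39 and 0.418). The list median was -0.25 without TCDD replicate 2 and -0.24 without TCDD replicate 3. Relative to the vehicle mean, the median member was at -0.09, -0.35 and -0.52 on TCDD replicates 1, 2 and 3. A share under 0 of 86.7%, 83.3% and 73.3% was found for bone and connective tissue, heart and blood probe sets. For skin, brain, eye and liver probe sets the share was 47.1%, 41.2%, 30.8% and 0%. Markers of muscle lay in the same direction as cartilage: 23 of their 26 probe sets were under 0 and the median was -0.30. It was -0.07 without TCDD replicate 2, -0.32 without TCDD replicate 3 and -0.42 without vehicle replicate 1. The summed intensity of the muscle list was 54030, 27220 and 40940 on the TCDD arrays, against 41150, 50200 and 51630 on the vehicle arrays. The part of tissue makeup in the cartilage values was not tested.

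Immediate early genes, which answer within minutes to many stimuli, lay below vehicle as a list, by a median that shrank without vehicle replicate 1. Of 37 genes 31 were matched to 42 probe sets. None passed, 38 had a difference under 0, and 19 of these had an unadjusted p under 0.05, beside 3.99% of all probe sets. In 14 of the 42 every TCDD array lay below every vehicle array, beside 4.99% of all. The list median was -0.50, but -0.12 without vehicle replicate 1, where 3 of the 42 had such a p, beside 493 of all 15502. Relative to the vehicle mean, the median member was 0.61 higher on vehicle replicate 1 and 0.38 and 0.34 lower on vehicle replicates 2 and 3. It was 0.46, 0.50 and 0.49 lower on the TCDD arrays, so TCDD replicates lay close to vehicle replicates 2 and 3. Egr1, a zinc finger factor, was far higher on vehicle replicate 1, though all TCDD arrays lay under vehicle replicates 2 and 3 as well. It read 5.16, 5.41 and 5.36 with TCDD, against 8.09, 5.95 and 6.10 with vehicle (limma adjusted p = 0.121). Atf3, a stress-induced factor, had the same shape with 5.02, 5.65 and 4.58 under TCDD and 8.02, 5.67 and 6.39 under vehicle (limma adjusted p = 0.184). Egr2b was lower by a difference of -0.48 (SE 0.13, limma adjusted p = 0.144). Klf2b, a Krüppel-like factor, went the other way, at 9.40, 9.21 and 9.18 with TCDD, against 8.85, 8.47 and 8.34 with vehicle (difference 0.71, SE 0.19, limma adjusted p = 0.129). What raised these genes in vehicle replicate 1 was not tested.

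**Figure D5:**
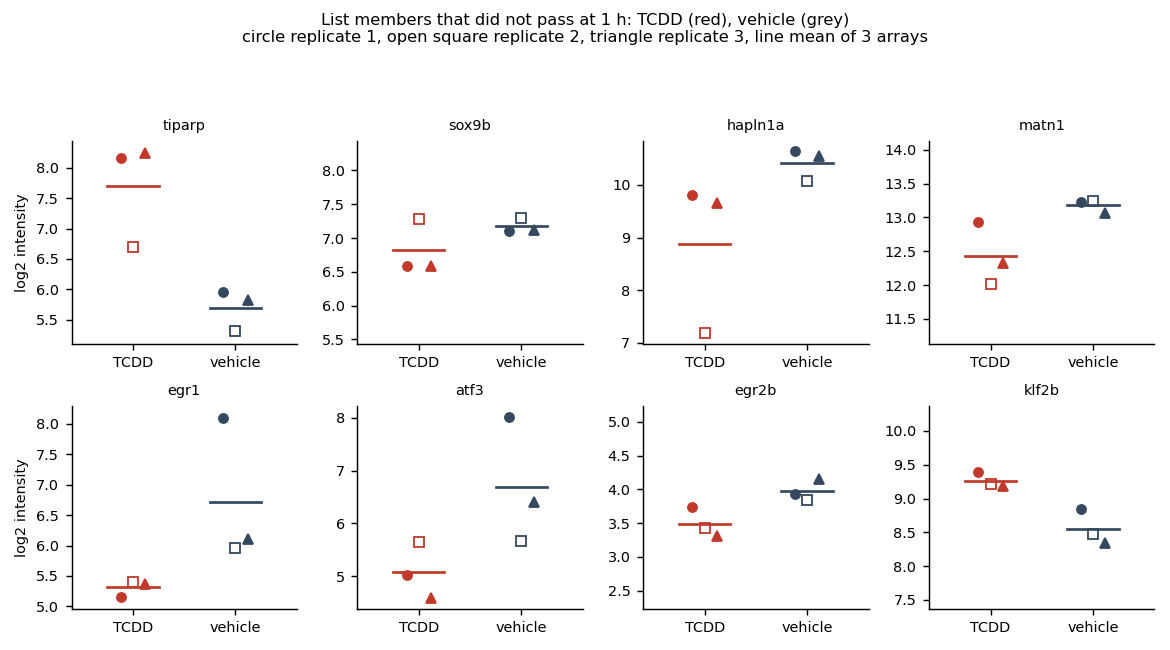
Each panel plots the log2 intensity of a list member that did not pass on the 3 TCDD and 3 vehicle arrays of 1 h, with group means as lines. Within the TCDD group, replicate 2 is the low point for tiparp and hapln1a and the high point for sox9b, and vehicle replicate 1 is the high point for egr1 and atf3.

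Marker lists of tissues were also read. Means over the 6 arrays lay above the brightest reporter for 20 of 25 cartilage and 12 of 15 bone and connective tissue probe sets. They did so for 24 of 26 muscle and 17 of 17 skin and pharyngeal epithelium probe sets. The same held for 16 of 17 brain, 11 of 15 blood, 7 of 13 eye, 5 of 6 heart and 4 of 6 liver probe sets. Of all 15502 probe sets, 12594 lay above it, so these counts cannot show which tissues the dissections held. None of these probe sets passed at 1 h. Liver genes marked TCDD replicate 1: their summed intensity was 1834, 49.7 and 262.6 with TCDD, against 52.7, 170.1 and 38.3 with vehicle. Apoa2, an apolipoprotein of liver, read 10.03, 3.12 and 5.997 with TCDD, against 3.01, 6.13 and 2.66 with vehicle. Eye genes were also highest there, at 743.9, 230.7 and 401.9 with TCDD, against 167.4, 163.6 and 317.6 with vehicle. List medians were -0.05 for bone and connective tissue, 0.10 for skin, 0.04 for brain, -0.03 for blood, -0.25 for heart, 0.23 for eye and 1.25 for liver. Several moved with single arrays. Without TCDD replicate 2 the medians were 0.14 for brain, -0.12 for blood, -0.04 for heart, 0.42 for eye and 1.83 for liver. Without TCDD replicate 3 they were 0.16 for skin, -0.09 for brain, -0.0003 for blood, -0.35 for heart, 0.53 for eye and 1.71 for liver. Without vehicle replicate 1 they were -0.02 for bone and connective tissue, 0.02 for brain, -0.04 for blood, -0.41 for heart and 0.08 for eye. On TCDD replicates 1, 2 and 3 the median eye member was at 0.99, 0.05 and -0.06 relative to the vehicle mean. The median liver member was at 3.59, 0.05 and 0.06. Medians without TCDD replicate 1 were not computed.

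Mpx, the peroxidase of neutrophils, is among the blood markers. A probe set annotated as mpx shares the first number of its array identifier with the cyp1a probe set, as do all 4 mpx probe sets. It was at 7.35, 8.51 and 8.998 with TCDD, against 6.16, 7.01 and 6.97 with vehicle, higher on every TCDD array (difference 1.58, SE 0.53, limma adjusted p = 0.238). Its differences at 2, 4 and 12 h were 1.18, 3.49 and 5.77, and it passed at 4 and 12 h (limma adjusted p = 0.00253 and 4.01e-06). Those of cyp1a were 1.55, 3.78 and 9.02. The other 3 mpx probe sets differed by -0.02 to 0.05 at 1 h, with levels between 2.38 and 3.01, near the brightest reporter. At 2, 4 and 12 h they differed by -0.10 to 0.12. Probe sets of hapln1a and atp2a1 also share a first number, as do those of gstp1.2 and postnb. A first number is thus not particular to 1 gene. Which transcript the raised mpx probe set measures was not tested.

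The weight of each TCDD array was checked on the 18 calls. Without TCDD replicate 2, 11 of the 18 passed again, and the sizes changed by -0.27 to 0.43. All 18 kept their direction, but groups without overlap fix this in advance, whichever array is left out. In all, 17 probe sets passed without it, 16 higher and 1 lower, of which 6 were not among the 18. TCDD replicate 2 was the array nearest to vehicle for 2 of the 18, compared with 4 for TCDD replicate 1 and 12 for TCDD replicate 3. Over all probe sets the median distance from the vehicle mean was 0.18, 0.17 and 0.11 on TCDD replicates 1, 2 and 3. They were the highest or lowest TCDD array for 68.8%, 78.5% and 52.7% of all probe sets. Without TCDD replicate 3 all 18 passed and the count was 206, with 158 higher and 48 lower. The 188 of these outside the 18, selected on TCDD replicates 1 and 2, had a median size of 0.93 there. In TCDD replicate 3, which this selection did not use, it was 0.27, and 164 of the 188 had the same sign. A smaller size is likely on an array left out of a selection. The count that passed at 1 h thus moved more without TCDD replicate 3, which has ordinary 5′ control signal (206), than without TCDD replicate 2 (17). Of the 18 calls, 10, 11 and 18 passed again without TCDD replicates 1, 2 and 3. They were selected with TCDD replicate 3, most often the nearest to vehicle, so passing without it was likely in advance.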

How the data were processed

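RNA from pooled jaws was measured on 24 one-colour Affymetrix arrays. The deposited values are probe set intensities on a linear scale, as the values show; RMA and GCRMA are named in the submitters' processing notes without role, order or version. Column medians were alike within a time and differed between times, so TCDD was compared with vehicle within each time only.

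No offset was added before log2 was taken, and 115 control probe sets were set aside. The 15502 others went into one limma 3.58.1 model in R 4.3.3, with a mean for each of the 8 groups (24 arrays, 16 residual degrees of freedom), moderated by eBayes and adjusted by Benjamini-Hochberg over all of them at 0.05. The script was tested on simulated data. Only the spread between arrays, each of pooled jaws, enters a p-value, and 3 arrays per group limit the precision.

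Genes come from GEO's platform annotation: 10795 probe sets have 1 gene, 135 several and 4572 none. Symbols of 10711 were looked up again through their Entrez ID in a RefSeq gene table of GRCz12tu. The members and gene lists were chosen with earlier results of these data known. Named were all probe sets that passed at 1 h, up to 5 of the next 10, at most 4 per list by p, and all of cyp1a and sox9b. The values of nqo1, gstp1, ahr2, apoa2, cxcr4b, wdr76 and further probe sets of named genes were chosen after they were seen, as were the list medians without single arrays. Alternatives were a replicate block (the random one with statmod 1.5.0), joint quantile normalization, a filter, eBayes and array weight settings, an offset of 16, fewer arrays, a 2-fold minimum and a dap covariate.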

Additional observations from a re-analysis of the deposited data

Results flagged for a closer look

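The TCDD effect at 1 h differed from the mean effect at 2, 4 and 12 h for 5 probe sets (limma adjusted p under 0.05 for the contrast between times). The contrast was -2.91 for cyp1a, whose difference at 1 h (1.87) was smaller than at 4 and 12 h (3.78 and 9.02) but not than at 2 h (1.55). It was -1.66 for cxcr4b, whose difference was smaller at 1 h than at each later time. For ca5a, which passed as lower at 1 h and at no later time, it was -1.004. It was 1.87 for sox9b, whose difference was smaller in size at 1 h, and 1.06 for wdr76, which passed as lower at 4 h and at no other time (differences of 0.59, -0.29, -0.76 and -0.37 at 1, 2, 4 and 12 h). Groups of 3 arrays are too small for a test of single outlying arrays.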

How the results depend on the processing

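The count of 18 at 1 h was 12 to 26 under 9 alternatives, namely joint quantile normalization (14, 10 of them higher, beside 16 of 18), the above-median filter (17), trend and robust (18), an offset of 16 (17), the 18 arrays of 1, 2 and 4 h (14), the dap covariate (26), a 2-fold minimum (12) and both replicate blocks. It was 39 with array weights and 0 on the 6 arrays of 1 h, where 1413 probe sets had an unadjusted p under 0.05. Leaving out arrays gave 0 to 206: 9 without vehicle replicate 1, 33 without vehicle replicate 3, 206 without TCDD replicate 3, 140 without replicate 3 in every group, and 0 without replicate 1 or 2 in every group (1114 and 818 at unadjusted p under 0.05). The count of 5 for 1 h against later was 36 with array weights, and 3 to 58 without single arrays of 1 h: 9 and 3 without TCDD replicates 1 and 2, 58 without TCDD replicate 3, and 3 and 10 without vehicle replicates 1 and 3. With the replicate number as a block within each time, 13 passed at 1 h (9 of the 18 again). In the contrast between times 2 then passed, cyp1a and cxcr4b, and sox9b did not. As a random block 18 passed at 1 h. Joint quantile normalization kept 12 of the 18 and lost 6, edn1 among them. Same-numbered TCDD and vehicle arrays of 1 h deviated together with correlations of -0.10, 0.17 and 0.00, and not every array matched its own number best, so the numbers were not taken as pairs. No sign changed for the 18, tiparp or the sox9b probe set at 7 log2 units under any alternative. For the 18 and tiparp, whose groups do not overlap, leaving out arrays could not change it. The dim sox9b probe set was at -0.04, with -0.067 to 0.0027 when arrays were left out (above 0 only without vehicle replicate 2). The causes were not tested. Signal near the reporters limits cox4i1l and the dim probe sets.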

Other observations

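Besides tiparp, 5 probe sets passed without TCDD replicate 2 but not with it, and they were named after their values were seen. Rpe65a, an enzyme of the visual cycle in the retinal pigment epithelium, read 7.33, 2.33 and 5.47 with TCDD, against 2.30, 2.38 and 2.25 with vehicle (difference without replicate 2 of 4.09, limma adjusted p = 0.0442). Rbp4l, one of the eye markers, read 8.40, 6.19 and 8.13 with TCDD, against 6.13, 5.87 and 6.26 with vehicle (2.18, limma adjusted p = 0.0444). Both were near the vehicle level on TCDD replicate 2. Cdk11b, eri1 and a probe set without a gene differed by 0.60, 0.85 and 1.04 without that array, all higher (limma adjusted p = 0.0444 for each).

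F13a1b was represented by 3 probe sets. The one without overlap and smallest p is given above. A second read 6.37, 5.22 and 5.84 with TCDD, against 6.89, 7.10 and 7.17 with vehicle (difference -1.25, SE 0.29, limma adjusted p = 0.107), also without overlap. The third, near the reporters, was at 3.19, 3.11 and 3.15 with TCDD, against 3.10, 3.72 and 3.57 with vehicle. At 12 h the first 2 were lower with TCDD by differences of -1.17 and -1.80 (limma adjusted p = 0.041 and 0.00387).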
